A study of Rattus norvegicus with 4 samples.

Results

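The phase II conjugation enzymes are the transferases that attach glucuronic acid, sulphate or glutathione to drugs, hormones and waste products. They were followed here in the livers of Lewis rats, as every gene of the deposited table whose symbol begins with Ugt1, Ugt2, Sult, Gsta, Gstk, Gstm, Gsto, Gstp, Gstt, Gstz or Mgst and whose row is not 0 throughout. Of the 31457 rows of the table, 57 carry such a symbol and 48 of these were not at 0 throughout. Those 48 are 8 genes of the UGT1 family, 6 of UGT2, 10 sulphotransferases (SULT), 21 soluble glutathione transferases (GST; the cytosolic classes together with mitochondrial kappa) and 3 membrane-bound ones (MGST). Sult1d1, Sult2a2, Sult6b1, Ugt1a4-ps, Ugt1a9-ps, Ugt2a1, Ugt2b7, Gstp-ps1 and Gstt4 were listed at 0 in all 4 libraries.

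Liver poly(A) RNA was sequenced from 4 groups of 1 library each, all of the Lewis strain with allotype RT1L. In the miR-27b group, partially hepatectomised rats had received into a vein the cells that the labels call ASCs carrying miR27b. In the siRNC group they had received ASCs with siRNC, in the saline group saline after the same surgery, and the naive group is labelled as a naive control. The labels used here give no age, sex, time after surgery or number of animals behind a library, and do not spell out ASCs or siRNC.

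In liver, the UGT enzymes of the endoplasmic reticulum transfer glucuronic acid from UDP-glucuronic acid, the SULT enzymes of the cytosol transfer sulphate from PAPS, and the GST enzymes couple glutathione to reactive compounds. The products are more soluble in water and leave in bile or urine. Many of these genes are induced by foreign compounds through the nuclear receptors PXR and CAR, the aryl hydrocarbon receptor and the antioxidant regulator NRF2, and several rat SULT and GST genes follow sex hormones and growth hormone.

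The deposited values are on a log2 scale relative to a baseline set for each gene, so a difference between livers can be read within a gene but levels cannot be compared between genes. With 1 library in each group there was no replicate check, no test between conditions was possible, and an animal's own variation cannot be told apart from its treatment. The intervals given are 95% counting intervals of the ratio of 2 libraries, worked out at the lowest number of reads that the rounding of the values allows, and they cover counting error only. In whole liver RNA, fewer cells of a type and less RNA per cell cannot be told apart. Where the reads behind a gene could not be recovered, the rounding of its values still placed its baseline in a level class, of which the top one holds the well covered genes and the 2 below it start at 16 and at 4 normalized reads. Of the 48 genes, 39 passed a filter on low levels (a mean of at least 10 normalized reads over the 4 libraries), as did 9872 genes of the whole table. Those left below it were Sult2b1, Sult4a1, Sult5a1, Ugt1a2, Ugt1a8, Ugt1a9, Gstm6, Gstm6l and Gsto2.

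The 10 hepatocyte markers were all measurable, with a median log2 difference of 0.21 in miR-27b liver, -0.12 in siRNC liver and -0.01 in saline liver, each against naive liver, and 2 of them, the fibrinogen genes Fga and Fgb, were at least 2-fold higher in miR-27b liver. Markers of other cells differed more. The median of the 12 measurable Kupffer cell and macrophage markers of 14 listed (Timd4 was listed at 0) was 1.52 higher in miR-27b liver, 1.18 higher in siRNC liver and 1.35 higher in saline liver than in naive liver. That of 6 erythroid markers was 2.03, 1.91 and 2.36 higher in the same order, and that of 6 genes of dividing cells was -0.95, -2.91 and -2.91. Stellate and fibroblast markers had medians of 0.87, 1.97 and 0.55 over 10 genes. Summed levels of these lists cannot be formed from values on separate baselines, and the part of these cells in the results below was not tested.

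The upstream sequences of 4 members whose values differ between the livers are shown first. They are 4 of the 10 members with a range of at least 1 on the log2 scale. Ugt2b1, another of the 10, is not shown. A pair among the 4, Sult2a1 and Sult2a6, are close copies. The values of these copies ran differently, but the counting intervals of Sult2a6 are wide and overlap those of Sult2a1. Each runs 5′ to 3′ over the 250 bases before the gene start in RefSeq (GRCr8), and capitals mark a match to the HNF1 core GTTAAT or to the C/EBP site TTGCNNAA, searched on both strands.
Gsta2, chr8:88077093-88077342, minus strand: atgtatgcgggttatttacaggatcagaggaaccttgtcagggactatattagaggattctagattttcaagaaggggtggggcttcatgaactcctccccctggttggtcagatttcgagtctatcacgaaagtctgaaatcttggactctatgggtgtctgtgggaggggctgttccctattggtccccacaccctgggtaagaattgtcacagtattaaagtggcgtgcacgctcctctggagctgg
Sult2a1, chr1:84638948-84639197, minus strand: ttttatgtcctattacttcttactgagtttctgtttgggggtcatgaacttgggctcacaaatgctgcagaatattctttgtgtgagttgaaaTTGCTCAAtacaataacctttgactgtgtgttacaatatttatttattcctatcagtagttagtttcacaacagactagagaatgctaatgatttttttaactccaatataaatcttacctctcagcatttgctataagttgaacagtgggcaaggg
Sult2a6, chr1:84097809-84098058, minus strand: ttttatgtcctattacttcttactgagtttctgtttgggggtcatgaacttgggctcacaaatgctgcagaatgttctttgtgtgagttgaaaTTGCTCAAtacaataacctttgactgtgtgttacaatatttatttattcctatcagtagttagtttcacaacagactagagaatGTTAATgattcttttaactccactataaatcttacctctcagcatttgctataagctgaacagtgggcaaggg
Ugt1a1, chr9:96248893-96249142, plus strand: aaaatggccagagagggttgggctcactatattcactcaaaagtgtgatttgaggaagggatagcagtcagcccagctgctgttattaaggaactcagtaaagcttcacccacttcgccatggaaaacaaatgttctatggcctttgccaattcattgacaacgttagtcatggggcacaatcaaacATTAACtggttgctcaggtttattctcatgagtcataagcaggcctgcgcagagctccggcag

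The Sult2a1 and Sult2a6 windows differ at 5 of 250 bases, counted from 1 at the 5′ end with the Sult2a1 base first: A74G, C179T, T188C, A200C and T233C. Both hold the C/EBP letters from base -157 before the gene start, and the C179T difference lies inside the HNF1 core that Sult2a6 alone of the pair holds, from base -73. Ugt1a1 holds the HNF1 core on the other strand from base -63. The Gsta2 window holds none of these letters, nor the antioxidant response element core TGACNNNGC. Bases further upstream than the 250 were not searched, so the gene may hold such letters there. Of 42 members with a RefSeq upstream window, 7 held the HNF1 core, 10 the C/EBP site and 5 the antioxidant core, and among 33469 such windows of the whole rat annotation the shares were 6.45%, 9.22% and 10.1%. A match is a description of letters and not of binding.

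UGT1 genes share their last exons and differ in the first, so reads may be divided between them unevenly by the authors' counting and values of single UGT1A genes are uncertain. Ugt1a1, the enzyme that glucuronidates bilirubin, was, with Ugt1a5, 1 of 2 genes among the 5 measurable ones of the family with a baseline in the top level class. Its value was -0.28 in miR-27b liver, -0.06 in siRNC liver, 0.73 in saline liver and 0.77 in naive liver. Both livers that received cells were thus low, and saline and naive liver were alike. Against naive liver the log2 difference was -1.05 (counting interval -1.37 to -0.73) in miR-27b liver, -0.83 (-1.13 to -0.53) in siRNC liver and -0.04 (-0.29 to 0.22) in saline liver. Against saline liver it was -1.01 (-1.33 to -0.69) in miR-27b liver and -0.79 (-1.09 to -0.49) in siRNC liver. Between the cell-treated livers it was -0.22 (-0.58 to 0.14), an interval that includes 0.

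Ugt1a3 and Ugt1a7c, each with a baseline between 4 and 16 normalized reads, had wide counting intervals. Ugt1a3 had a value of -1.34 in miR-27b liver, 0.98 in siRNC liver, -0.44 in saline liver and 0.00 in naive liver. The cell-treated livers held its lowest and highest values, 2.32 apart on the log2 scale with miR-27b lower, but the interval of that difference ran from -8.23 to 0.23. Ugt1a7c, whose rat enzyme acts on phenols and on products of polycyclic hydrocarbons, had a value of 0.85 in miR-27b liver, 0.00 in siRNC liver, 0.34 in saline liver and -0.75 in naive liver. It was above naive in each hepatectomised liver, by 1.59 (-1.26 to 4.75) in miR-27b liver, 0.74 (-2.58 to 4.13) in siRNC liver and 1.08 (-1.89 to 4.38) in saline liver, and all 3 intervals include 0. The remaining measurable genes, Ugt1a5 and Ugt1a6 (a phenol-conjugating form), spanned 0.38 and 0.29 over the 4 libraries. Of those below the filter, Ugt1a2 was 2.44 higher in miR-27b liver than in siRNC liver, with an interval of -0.39 to 8.18.

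In the UGT2 family, all 6 genes above 0 passed the filter with a baseline in the top level class. Of them, 5 spanned less than 1 on the log2 scale over the 4 libraries and 1 spanned at least 1, as did 21.7% of all genes. That share includes genes of lower level classes. Ugt2b1, which conjugates morphine in the rat, was the exception, with a value of 0.00 in miR-27b liver, 0.06 in siRNC liver, 0.75 in saline liver and -0.35 in naive liver. Saline liver was its highest library and naive liver its lowest. The difference from naive liver was 0.35 (-0.31 to 0.99) in miR-27b liver, 0.41 (-0.25 to 1.03) in siRNC liver and 1.10 (0.52 to 1.68) in saline liver. Relative to saline liver, Ugt2b1 was 0.75 lower in miR-27b liver (log2 difference -0.75, interval -1.30 to -0.22) and 0.69 lower in siRNC liver (-0.69, interval -1.24 to -0.19). Its saline value thus lay apart from the other 3 livers, while Ugt1a1 in saline liver lay with naive liver.

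Ugt2a3 had values of 0.00, -0.49, 0.28 and 0.05 in miR-27b, siRNC, saline and naive liver. It was the lowest gene of its family in siRNC liver, both against naive liver (-0.54, interval -1.20 to 0.10) and against saline liver (-0.77, interval -1.41 to -0.17). Ugt2b37 was the lowest gene of the family in miR-27b liver and in saline liver against naive liver, at -0.37 (-0.99 to 0.25) and -0.23 (-0.82 to 0.36). Ugt2b10 was the highest in miR-27b liver against saline liver, at 0.13 (-0.46 to 0.76). Ugt2b15, which RefSeq now calls Ugt2b35, and Ugt2b spanned 0.27 and 0.46.

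**Figure D1:**
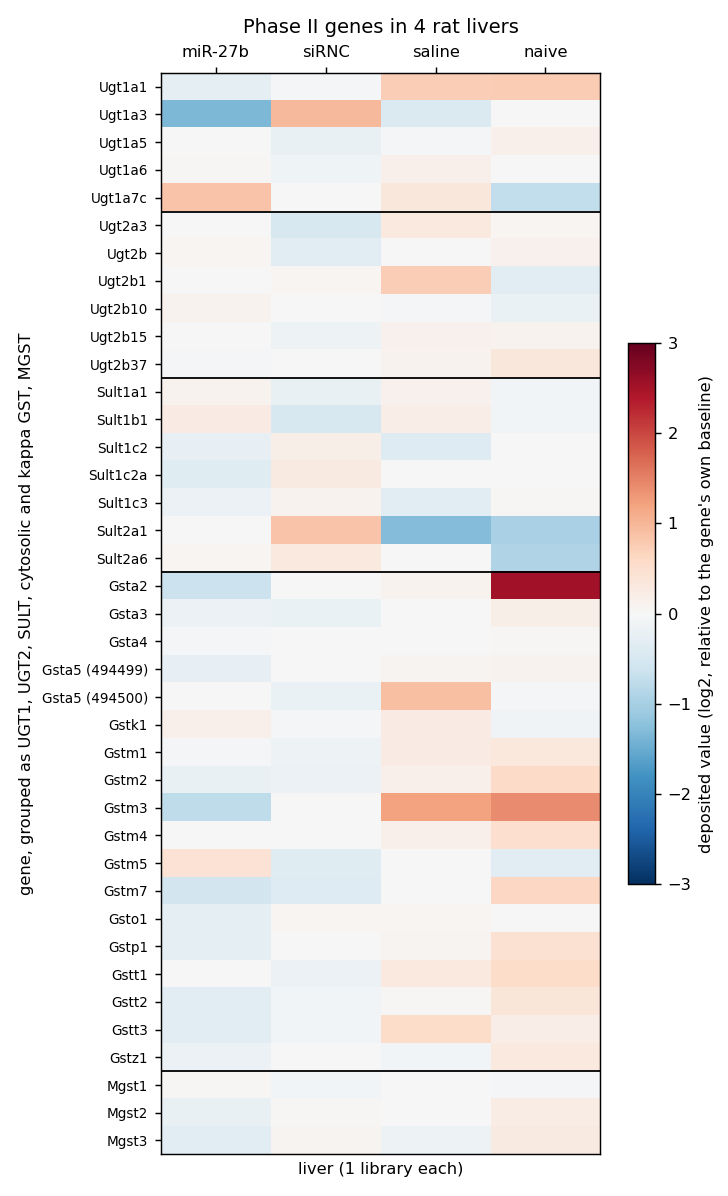
Deposited log2 values of the 39 phase II genes that passed the filter on low levels, 1 row a gene and 1 column a liver (miR-27b, siRNC, saline, naive), each relative to its gene's own baseline, with lines between the families. Gsta2 is far above its other values in naive liver (2.52), Sult2a1 is highest in siRNC liver (0.86), and most UGT2 and MGST rows are pale.

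Sult2a1 had the widest range of all members in the top level class. This sulphotransferase of hydroxysteroids and bile acids had a value of 0.00 in miR-27b liver, 0.86 in siRNC liver, -1.30 in saline liver and -0.98 in naive liver. Both livers that received cells were high and both that did not were low. Against naive liver it was 0.98 higher in miR-27b liver (0.39 to 1.58) and 1.84 higher in siRNC liver (1.31 to 2.40), a ratio of 3.58, and its log2 difference in saline liver was -0.32 (-1.06 to 0.38). Against saline liver it was 1.30 higher in miR-27b liver (0.69 to 1.96) and 2.16 higher in siRNC liver (1.61 to 2.78), a ratio of 4.47. Between the cell-treated livers the log2 difference was -0.86 (-1.30 to -0.45), with miR-27b liver the lower.

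Sult2a6, its near copy in the upstream sequences above, was on a lower baseline, in the class that starts at 16 normalized reads, and its values ran differently. Its value was 0.06 in miR-27b liver, 0.29 in siRNC liver, 0.00 in saline liver and -0.90 in naive liver. Naive liver was apart at the low end and saline liver lay with the cell-treated livers, whereas for Sult2a1 saline liver lay with naive liver. The log2 difference from naive liver was 0.97 (-0.85 to 2.80) in miR-27b liver, 1.19 (-0.55 to 2.97) in siRNC liver and 0.90 (-0.97 to 2.68) in saline liver. The difference from saline liver was 0.06 (-1.39 to 1.63) in miR-27b liver and 0.29 (-1.07 to 1.79) in siRNC liver. These intervals of Sult2a6 all include 0 and overlap those of Sult2a1, so a difference between the profiles of the pair is not established. Reads of the copies may also have been shared in the authors' counting, so the split between the pair is uncertain.

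The SULT1 genes moved within narrower limits. Sult1b1, which sulphates thyroid hormones among other phenols, had a value of 0.25 in miR-27b liver, -0.48 in siRNC liver, 0.20 in saline liver and -0.09 in naive liver. It ran opposite to Sult2a1 between the cell-treated livers, with miR-27b liver 0.73 above siRNC liver (0.39 to 1.08), and siRNC liver was below saline liver by a log2 difference of -0.68 (-1.02 to -0.34). Sult1a1, the main phenol sulphotransferase, differed from saline liver by -0.34 (-0.68 to -0.01) in siRNC liver and by -0.01 (-0.33 to 0.31) in miR-27b liver. Sult1c3 was 0.43 higher in siRNC liver than in saline liver (0.10 to 0.77).

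Sult1c2 and Sult1c2a, on baselines in the class that starts at 16 normalized reads, had no interval that excluded 0. Sult1c2 was the lowest SULT gene in saline liver against naive liver, at -0.39 (-2.16 to 1.49). Sult1c2a was the lowest in miR-27b liver, at -0.33 against naive liver (-2.04 to 1.61) and -0.36 against saline liver (-2.10 to 1.42).

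Most of the soluble glutathione transferases lay below naive liver. Of the 18 measurable genes, 3 were above naive liver in miR-27b liver (47.5% of all 9872 genes were), 2 in siRNC liver (49.6% of all genes) and 5 in saline liver (48.8% of all genes). The median log2 differences of the 18 were -0.49, -0.42 and -0.20 in that order, and those of all genes lay within 0.03 of 0. The 3 comparisons share the naive library, so a high value there moves all of them together. Against saline liver, 1 of the 18 was higher in miR-27b liver (median -0.32), where 50% of all genes were, and 2 in siRNC liver (median -0.25), where 49.2% were; these share the saline library. In miR-27b against siRNC liver 7 were higher, with a median of -0.11, beside 50.3% of all genes.

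Gsta2, an alpha-class transferase that also reduces lipid peroxides, had the largest range of the 39 genes. Its value was -0.65 in miR-27b liver, 0.00 in siRNC liver, 0.11 in saline liver and 2.52 in naive liver, on a baseline of 4 to 16 normalized reads. Naive liver alone was high, and the 3 hepatectomised livers lay within 0.77 of each other. At the lowest level the rounding allows, miR-27b, siRNC and saline liver held 1.4, 2.3 and 2.5 reads and naive liver 12.7. Gsta2 thus passed the filter largely through naive liver. The likeness of the hepatectomised livers is not established, with an interval of -7.18 to 2.17 for miR-27b against saline liver. The log2 difference from naive liver was -3.17 (-9.08 to -0.93) in miR-27b liver, -2.52 (-5.93 to -0.60) in siRNC liver and -2.40 (-4.66 to -0.34) in saline liver, or ratios of 0.111, 0.175 and 0.189. The other alpha-class genes did not share this. Gsta4, which clears the lipid peroxidation product hydroxynonenal, spanned 0.08 over the 4 libraries, the least of all 39 genes. Gsta3, which RefSeq now calls Gsta1, was below naive liver by -0.35 (-0.70 to -0.02) in miR-27b liver, -0.39 (-0.72 to -0.05) in siRNC liver and -0.17 (-0.50 to 0.14) in saline liver.

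A pair of rows in the table shares the symbol Gsta5. The one with gene ID 494500, now Gsta3 in RefSeq, had a value of 0.00 in miR-27b liver, -0.20 in siRNC liver, 0.90 in saline liver and -0.04 in naive liver, so saline liver alone was high, 0.95 above naive liver (-0.49 to 2.46). The log2 difference from saline liver was -0.90 (-2.43 to 0.52) in miR-27b liver and -1.10 (-2.84 to 0.30) in siRNC liver, and all of these intervals include 0. The one with gene ID 494499 spanned 0.34. Alpha-class genes resemble each other closely, so reads may be divided between them.

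Among the mu-class genes, which act on epoxides and other electrophiles, all 6 were below naive liver in siRNC liver, 5 in miR-27b liver and 5 in saline liver. Gstm3 had a value of -0.77 in miR-27b liver, 0.00 in siRNC liver, 1.20 in saline liver and 1.42 in naive liver, with both cell-treated livers under both others. Its log2 difference from naive liver was -2.19 (-5.08 to 0.62) in miR-27b liver, -1.42 (-3.85 to 0.87) in siRNC liver and -0.22 (-1.83 to 1.65) in saline liver. On its baseline of 4 to 16 normalized reads each of these intervals includes 0.

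Gstm2, with a baseline in the top level class, gave the firmest mu-class difference. Its value was -0.22 in miR-27b liver, -0.19 in siRNC liver, 0.15 in saline liver and 0.57 in naive liver, so the naive library was highest and the cell-treated ones were lowest and alike. The log2 difference from naive liver was -0.79 (-1.11 to -0.47) in miR-27b liver, -0.75 (-1.07 to -0.44) in siRNC liver and -0.41 (-0.70 to -0.13) in saline liver. Gstm4 followed the same order of naive over saline over the cell-treated livers, with -0.51 (-0.83 to -0.19), -0.52 (-0.84 to -0.20) and -0.36 (-0.66 to -0.05). Gstm1 differed from naive liver by -0.35 (-0.68 to -0.02), -0.46 (-0.79 to -0.12) and -0.08 (-0.39 to 0.22) in miR-27b, siRNC and saline liver. Gstm7 had values of -0.56, -0.38, 0.00 and 0.61 in miR-27b, siRNC, saline and naive liver, and its difference of -1.17 between miR-27b and naive liver had an interval of -2.86 to 0.28. Gstm5 went the other way in miR-27b liver, 0.76 above naive liver (-0.83 to 2.51), 0.43 above saline liver (-1.05 to 1.99) and 0.80 above siRNC liver (-0.79 to 2.55).

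Gstt2, a theta-class transferase that acts on sulphate esters, was the one member above the filter whose reads could be recovered. It had 361.2 reads in miR-27b liver, 450.0 in siRNC liver, 504.0 in saline liver and 601.0 in naive liver, before division by the size factors of the libraries. Its lowest library was thus miR-27b, followed upwards by siRNC, saline and naive. The log2 difference from naive liver was -0.70 (-0.90 to -0.51) in miR-27b liver, -0.46 (-0.64 to -0.28) in siRNC liver and -0.34 (-0.52 to -0.17) in saline liver. Gstt3 had values of -0.34, -0.08, 0.54 and 0.19 in miR-27b, siRNC, saline and naive liver. Its highest library was saline, above miR-27b liver (difference -0.89, interval -1.22 to -0.56) and above siRNC liver (-0.62, interval -0.93 to -0.32). Gstt1, which acts on small halogenated compounds, differed from naive liver by -0.54 (-1.14 to 0.02) in miR-27b liver, -0.73 (-1.33 to -0.14) in siRNC liver and -0.26 (-0.78 to 0.28) in saline liver.

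The remaining classes each had 1 measurable gene. Gstk1, the kappa-class enzyme of mitochondria and peroxisomes, was the highest GST gene in siRNC liver against naive liver, at 0.07 (-0.28 to 0.42), and was 0.35 above naive liver in saline liver (0.03 to 0.69). Gstp1, the pi-class enzyme known as a marker of early lesions in rat liver, spanned 0.73, with 0 inside each interval against naive liver. Gstz1, an isomerase of tyrosine breakdown, was the highest GST gene in siRNC liver against saline liver, at 0.08 (-0.54 to 0.70). Gsto1, an omega-class enzyme that can reduce dehydroascorbate, spanned 0.34. Of the genes below the filter, Gstm6 was -3.23 (-8.73 to -0.48) in miR-27b liver, -1.12 (-2.94 to 0.64) in siRNC liver and -2.75 (-5.64 to -0.18) in saline liver against naive liver.

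Of the membrane-bound enzymes, Mgst1 of the endoplasmic reticulum and outer mitochondrial membrane spanned 0.12, next to the least of the 39 genes. Mgst3, a glutathione-dependent peroxidase, was the lowest against naive liver in miR-27b and saline liver, at -0.61 (-1.74 to 0.58) and -0.41 (-1.44 to 0.72). Mgst2, which can make leukotriene C4, differed from naive liver by -0.46 (-2.19 to 1.33) in miR-27b liver, -0.19 (-1.93 to 1.42) in siRNC liver and -0.23 (-1.98 to 1.38) in saline liver. No interval in this family excluded 0.

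**Figure D2:**
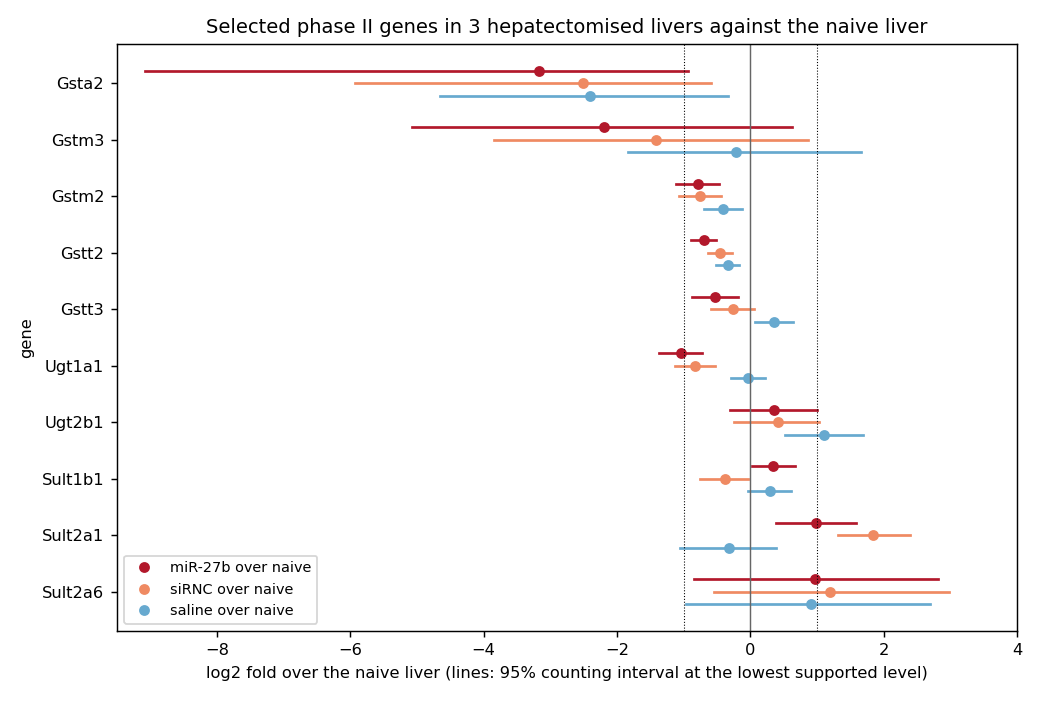
Log2 fold over the naive liver of 10 phase II genes in miR-27b, siRNC and saline liver (1 library each), with dots for the fold, lines for the 95% counting interval at the lowest supported read level, and dotted lines at 2-fold. Ugt1a1 is left of 0 in both cell-treated livers (-1.05 and -0.83) and near 0 in saline liver (-0.04), Sult2a1 is right of 0 in both (0.98 and 1.84), and the lines of Gsta2 and Gstm3 are long.

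The members past 2-fold were counted beside the shares over the whole table. In miR-27b liver against naive liver, 1 of 39 was at least 2-fold higher (Ugt1a7c) and 5 were at least 2-fold lower (Gsta2, Gstm3, Ugt1a3, Gstm7 and Ugt1a1), where 8.51% and 4.55% of all 9872 genes were. In siRNC liver against naive liver, 2 were higher (Sult2a1 and Sult2a6) and 2 lower (Gsta2 and Gstm3), beside 6.33% and 3.86% of all genes. In saline liver against naive liver, 2 were higher (Ugt2b1 and Ugt1a7c) and 1 lower (Gsta2), beside 6.09% and 4.24%. Of these, Ugt1a1, Gsta2, Ugt2b1 and Sult2a1 had counting intervals without 0, though Gsta2 passed the filter largely through naive liver.

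Among the hepatectomised livers, siRNC against saline gave 2 members at least 2-fold higher (Sult2a1 and Ugt1a3) and 2 at least 2-fold lower (Gstm3 and the Gsta5 row with gene ID 494500), where 2.56% and 1.96% of all genes were. In miR-27b against saline liver, 1 was higher (Sult2a1) and 2 were lower (Gstm3 and Ugt1a1), beside 2.7% and 2.2%. In miR-27b against siRNC liver, none was higher and 1 was lower (Ugt1a3), beside 3.12% and 2.71% of all genes. No test was made of these shares. As an alternative, 5 normalized reads were added to each level before the ratio, which shrinks low genes. Where reads were not recovered, that level was assumed to be the bottom of the gene's level class. No difference of Ugt1a3, Ugt1a7c, Sult2a6, Gstm7 or the Gsta5 row then stayed past 2-fold. Gstm3 stayed past it in miR-27b against naive liver alone. Ugt1a1 in miR-27b against saline liver moved just inside it (-0.99). Differences of Gsta2, Sult2a1 and Ugt2b1 stayed past it. These outcomes depend on the assumed level. For Gstm3 it was 4 normalized reads, where the counting intervals used 2.75. A range of at least 1 on the log2 scale over the 4 libraries was reached by 10 of the 39 members (25.6%) and by 21.7% of all genes, and a range under 0.5 was found in 17 members (43.6%) and in 43.4% of all genes.

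Many members were highest in naive liver: 19 of 39 (48.7%) lay below it in each of the 3 hepatectomised livers, against 32.4% of all genes, and 5 of 39 (12.8%) lay above it in each, against 29.8% of all genes. Of the 19, only Ugt1a1, Ugt1a5, Ugt2b and Ugt2b37 were not glutathione transferases, and no SULT gene was among them. The pattern thus lay mainly with the soluble and membrane-bound glutathione transferases and was not shared by the phase II genes as a whole. The 5 were Sult2a6, Ugt1a7c, Ugt2b1, Ugt2b10 and Gstk1. Over the 39 members the median log2 difference from naive liver was -0.27 in miR-27b liver, -0.19 in siRNC liver and -0.08 in saline liver. From saline liver it was -0.18 in miR-27b liver and -0.19 in siRNC liver, and between miR-27b and siRNC liver -0.04. These describe 1 library a group and were not tested.

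**Figure D3:**
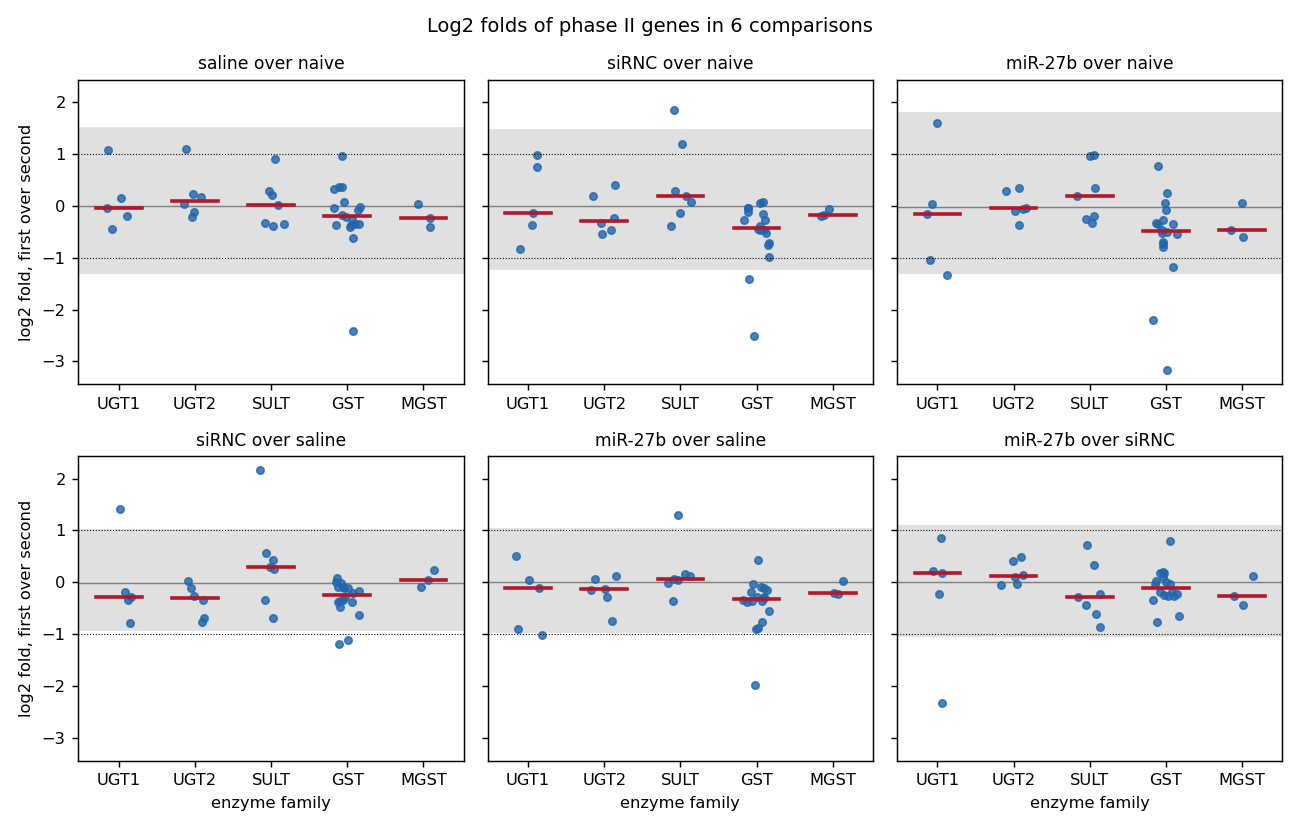
Log2 folds of the 39 measurable phase II genes by family in the 6 comparisons (1 library each), with a dot for each gene, a red bar for the family's median, a grey band for the central 95% of all 9872 genes and dotted lines at 2-fold. The GST medians lie below 0 in every panel (-0.49 in miR-27b over naive, -0.11 in miR-27b over siRNC), and Sult2a1 lies above the band in siRNC over saline (2.16).

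The enzymes depend on supplied cofactors, and 19 listed genes of cofactor supply were all measurable. Against naive liver, 1 was at least 2-fold higher and 3 lower in miR-27b liver (8.51% and 4.55% of all genes), 0 and 1 in siRNC liver (6.33% and 3.86%), and 0 and 1 in saline liver (6.09% and 4.24%). Ugdh, which makes UDP-glucuronic acid, differed from naive liver by -0.45 in miR-27b liver, 0.13 in siRNC liver and -0.03 in saline liver. Ugp2, which makes its precursor UDP-glucose, was -1.17 in miR-27b liver, 0.17 in siRNC liver and -0.54 in saline liver, and -1.34 in miR-27b against siRNC liver. The RNA of both genes was thus lowest in miR-27b liver, with siRNC liver slightly above naive liver. No counting intervals were worked out for the genes of cofactor supply, nor for the regulators, other enzymes and exporters below.

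The PAPS synthases that supply the sulphotransferases did not move together. Papss1 was 1.18 above naive liver in miR-27b liver, 0.81 in siRNC liver and 0.02 in saline liver. Papss2 was -1.09, -0.88 and -0.85 in the same order. Slc35b3, a PAPS carrier of the Golgi, was -0.97, -1.41 and -2.50, and above saline liver by 1.52 in miR-27b liver and 1.08 in siRNC liver. The subunits of glutamate-cysteine ligase, which limits glutathione synthesis, were lowest in miR-27b liver: Gclm was -1.30, -0.40 and -0.46 from naive liver in miR-27b, siRNC and saline liver, and Gclc -0.83, -0.39 and -0.20.

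Of 23 measurable rows of regulators, 0 were at least 2-fold higher in any hepatectomised liver against naive liver, where 8.51%, 6.33% and 6.09% of all genes were in miR-27b, siRNC and saline liver. At least 2-fold lower were 4 in miR-27b liver, 3 in siRNC liver and 3 in saline liver, beside 4.55%, 3.86% and 4.24% of all genes. Nfe2l2, which encodes NRF2, was -1.12, -0.70 and -1.20 from naive liver in miR-27b, siRNC and saline liver, and Keap1, its inhibitor, -0.52, -0.24 and 0.07. Nr1i3, which encodes CAR, was -1.32, -1.28 and -0.51, so both cell-treated livers were the lowest, as they were for Ugt1a1. In saline liver the 2 genes differed, with Nr1i3 below naive liver and Ugt1a1 level with it (-0.04). Whether they are linked was not tested. Nr1i2, which encodes PXR, was 0.29, -0.22 and 0.10. Ahr was 0.42, -0.77 and -0.12, and 1.19 higher in miR-27b than in siRNC liver.

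The other regulators past 2-fold were Foxa2, Nr3c1, Stat5b and Bcl6. Foxa2, a liver transcription factor, was -1.15 from naive liver in miR-27b liver, 0.27 in siRNC liver and 0.24 in saline liver. The glucocorticoid receptor Nr3c1 had 2 measurable rows, one at -0.71, -0.52 and -1.39 and the other at -0.24, 0.26 and -0.49, so they differed in direction in siRNC liver. Stat5b, through which growth hormone acts, was -0.09, -1.01 and -0.58. Bcl6, a repressor under growth hormone control in rodent liver, was -2.02, -2.70 and -4.67, and above saline liver by 2.65 in miR-27b liver and 1.97 in siRNC liver. Saline liver was the lowest library for Bcl6 as for Sult2a1, but the naive libraries differed. Naive liver was the highest for Bcl6, and for Sult2a1 it could not be told from saline liver (-0.32, interval -1.06 to 0.38). A link between the 2 genes was not tested.

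**Figure D4:**
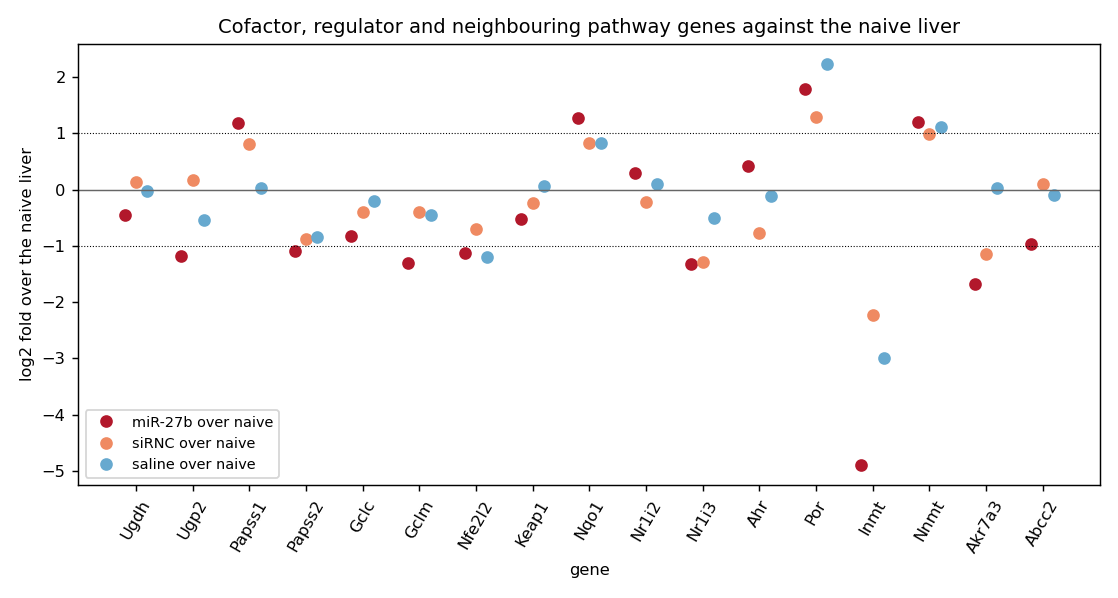
Log2 fold over the naive liver of 17 genes of cofactor supply, regulation, neighbouring reactions and export in miR-27b, siRNC and saline liver (1 library each; dotted lines at 2-fold). Among the 17 genes drawn, which leave out Bcl6, Ces2c and Acsm2a, Inmt is lowest in all 3 livers (-4.89, -2.24 and -2.99), Por is highest (1.78, 1.28 and 2.23), and Nqo1 lies above 0 while Nfe2l2 lies below it.

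Conjugating enzymes outside the 3 families gave 14 measurable genes of 26 listed. Inmt, an N-methyltransferase of amines, was -4.89 from naive liver in miR-27b liver, -2.24 in siRNC liver and -2.99 in saline liver. Nnmt, which methylates nicotinamide, was 1.20, 0.98 and 1.12, and Acsm2a, which activates acids for glycine conjugation, 1.02, 1.45 and 1.85. The other 11 stayed within 2-fold of naive liver. Of all genes, 8.51%, 6.33% and 6.09% were at least 2-fold higher in miR-27b, siRNC and saline liver, and 4.55%, 3.86% and 4.24% lower.

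The enzymes that act before or beside conjugation gave 20 measurable genes of 26. Por, which passes electrons to the cytochromes P450, was 1.78, 1.28 and 2.23 above naive liver in miR-27b, siRNC and saline liver. Nqo1, a quinone reductase and a standard NRF2 target, was 1.27, 0.83 and 0.82 above it. The carboxylesterase gene Ces2c was 1.98, 1.05 and 2.50 above naive liver, and Ces1d was -1.82, -1.48 and -1.03. Akr7a3, an aldehyde reductase known for handling aflatoxin, was -1.68, -1.14 and 0.02, so that it was low in both cell-treated livers and nearly level between saline and naive liver, as Ugt1a1 was.

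Of the exporters that carry conjugates out of the hepatocyte, 7 rows were measurable and Abcc3 was listed at 0. Abcc2, the pump for bilirubin glucuronides into bile, was -0.97 from naive liver in miR-27b liver, 0.11 in siRNC liver and -0.11 in saline liver, and -1.07 in miR-27b against siRNC liver. Abcb1a was -0.76, 0.40 and 0.18 from naive liver, and -1.16 in miR-27b against siRNC liver. Abcc6 was -0.75, -1.04 and -0.78 from naive liver. For the bilirubin pathway the values were low for both Ugt1a1 and Abcc2 in miR-27b liver, and low for Ugt1a1 alone of the pair in siRNC liver.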

How the data were processed

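One table of 4 rat liver libraries was used, with no column left without a sample (0 such columns). Per the submitters' processing notes, DESeq and the genome build rn5 were used. The software for aligning and counting reads was not given in the sources used here. Deposited values are log2 expression relative to a baseline for each gene, per the file headers and the values themselves, floored at 1 normalized read. Library depth is not in the table. Size factors were read from genes above 0 in 1 library alone, at the fewest reads above the floor. For siRNC and saline a single read lies below the floor, so more than 1 read was used. The size factors were 0.956 for miR-27b, 1.005 for siRNC, 1.039 for saline and 0.977 for naive, resting on 236, 28, 27 and 183 genes. Differences of log2 values were taken within a gene, for 6 comparisons, with no test. Reads were recovered where the values are whole or 1/101 steps of reads (4068 of 12874 genes with a value other than 0); otherwise the rounding of the values gave a level class. Genes were kept whose mean over the libraries reached 10 normalized reads, by the recovered reads or with a probability of at least 0.5. Intervals are exact (Clopper-Pearson) at 95%; where reads were not recovered they use the level exceeded with 97.5% probability. Counting error alone gives a log2 ratio an SD of 0.51 where both libraries hold 16 reads, and 0.128 where both hold 256, which is where the top level class begins. PCR copies are not independent molecules. Computing was done with Python 3.11.15, numpy 2.4.6, pandas 2.3.3 and scipy 1.17.1, and the steps were tested on simulated data. All 57 gene IDs had a current RefSeq entry (GRCr8), used for names and upstream sequences. The genes named are members at least 2-fold apart in any comparison, the highest and lowest of each family in each comparison, companion genes past 2-fold, and 9 companions whatever their values; other members were added for completeness. The members and lists were chosen with earlier results of these data known. Alternatives were no filter, a stricter filter, a pseudocount of 5 reads, re-centring and leaving out the UGT1A genes. The pseudocount was added at the bottom of the level class where reads were not recovered.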

Additional observations from a re-analysis of the deposited data

How the results depend on the processing

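Of 120 alternative folds of the 10 members past 2-fold (a pseudocount of 5 normalized reads, or re-centring on the median of all genes), none changed direction, and each stayed inside the counting interval of its reported value. Neither alternative could reverse a 2-fold difference, since a pseudocount only shrinks a ratio and re-centring shifted folds by at most 0.03. The intervals of low genes are also wide, so these 120 folds are no check of how firm the differences are. The medians over members moved by less than 0.1 under every alternative run, while some counts of members moved by over 1.5 times. Without a filter (48 members), 2 were at least 2-fold lower in saline and 5 in siRNC against naive liver, 3 were higher in miR-27b against naive liver, 4 were lower in siRNC against saline liver, 2 were higher and 4 lower in miR-27b against saline liver, and 2 were higher and 2 lower in miR-27b against siRNC liver. A stricter filter asked for a mean of at least 50 reads where reads were recovered, and otherwise for a baseline in the top level class. With it (25 members), 1 was higher and 0 lower in saline against naive, in siRNC against naive and in siRNC against saline liver. In miR-27b liver, 0 were higher and 1 lower against naive liver, 1 was lower against saline liver and 0 against siRNC liver. With the pseudocount, 1 was higher in saline against naive liver, 1 higher and 1 lower in siRNC against naive liver, 0 higher and 3 lower in miR-27b against naive liver, 1 higher and 0 lower in siRNC against saline liver, and 0 lower in miR-27b against saline and against siRNC liver. Re-centring gave 2 higher in miR-27b against naive liver. Without the UGT1A genes (34 members, an alternative chosen after seeing the data), 1 was higher in saline against naive liver, 0 higher and 3 lower in miR-27b against naive liver, 1 higher in siRNC against saline liver, 1 lower in miR-27b against saline liver and 0 lower in miR-27b against siRNC liver. The filters and leaving out the UGT1A genes changed which members entered these counts. The pseudocount and re-centring kept the same 39 members, so their counts moved where a fold crossed the 2-fold limit. On re-centring, Sult2a1 in miR-27b against naive liver went from 0.98 to 1.01. Keeping 1 member of each group of near-identical proteins was not run, since no protein sequences were used here. No paired analysis was possible because each group has 1 library and the groups share fewer than 2 replicate numbers, and for the same reason no library could be left out. Levels below about 16 reads limit Gsta2, Gstm3, Ugt1a3 and Ugt1a7c.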
